A study of Homo sapiens with 10 samples.

Results

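Translation initiation factors are the proteins that place a ribosome with its initiator tRNA on the start codon of an mRNA. Their genes were followed in BJ cells, human foreskin fibroblasts immortalised with hTERT, that were left untreated (control) or were kept on nutlin-3a for 2, 4, 6 or 19 h. Nutlin-3a is an inhibitor of MDM2, the ubiquitin ligase that keeps p53 low, and the series asks how the p53 response changes transcript levels and their translation. At each of these times 1 RNA-Seq library of poly(A) RNA and 1 Ribo-Seq library, made from mRNA fragments covered by ribosomes, was sequenced, which gives 10 libraries of 1 immortalised line and no replicate of any group. Members were the genes whose symbol begins with EIF and a digit in both expression tables, without the eIF4E-binding proteins and the eIF2 kinases. There were 49 of them among 11258 transcripts in both tables, and no further one was listed in a single table. A sex-chromosome member was counted and is not described. Of the other 48, 42 reached at least 5 FPKM (fragments scaled to transcript length and library size) in at least 1 library of each assay and are called tested, as are 7015 transcripts in all.

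The symbols cover more than the subunits of initiation complexes. EIF2C1, EIF2C2, EIF2C3 and EIF2C4 are older symbols of the Argonaute proteins of RNA silencing, EIF1AD is a nuclear protein related to eIF1A, and EIF4ENIF1 is the eIF4E transporter 4E-T. The members below the filter were EIF2C1, EIF2C3, EIF2C4, EIF3C, EIF4E3 and EIF5A2. The authors kept uniquely aligned reads only, so members with near-identical copies are uncertain. EIF3C, which encodes an eIF3 subunit, was at 1.59 FPKM in the RNA-Seq control and 0.0820 FPKM in the Ribo-Seq control. The same caution holds for EIF1AX, EIF4A1, EIF4A2, EIF5A, EIF5A2 and EIF5AL1.

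In initiation, eIF2 carries the initiator tRNA to the small ribosomal subunit and eIF2B reloads it with GTP. The large eIF3 complex binds the small subunit, and eIF4F, made of the cap-binding protein eIF4E, the scaffold eIF4G and the helicase eIF4A, recruits it to the mRNA cap. eIF5 and eIF5B act when the start codon has been found and the large subunit joins. Some mRNAs of the translation apparatus, those of ribosomal proteins above all, begin with a C and a run of pyrimidines, the terminal oligopyrimidine (TOP) tract, and their translation depends on the mTOR kinase. mRNAs of several initiation factors have been described as TOP mRNAs.

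The recovered library totals were between 23845547 and 27554305 reads in RNA-Seq and between 7744911 (19 h) and 14460735 (4 h) in Ribo-Seq. In the Ribo-Seq library of 19 h the tested members had a median of 521 reads and a minimum of 118. The median counting SE of a member's log2 change at 19 h amounted to 0.037 in RNA, to 0.074 in ribosome density and to 0.086 in translational efficiency (TE). These errors cover counting only and say nothing of the spread between cultures. All 9 fibroblast markers were listed in the control libraries, at 55.5 FPKM or more in RNA-Seq, and of 8 epithelial, endothelial and leukocyte markers CDH1 (0.017 FPKM) and PTPRC (0.11 FPKM) alone were listed. The p53 targets CDKN1A and MDM2 were 19.2-fold and 17.5-fold above control in RNA at 19 h.

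RNA levels of the initiation factors stayed near control. A change of at least 1.5-fold (0.585 on the log2 scale) from the control library of the same assay, after values under 1 FPKM were raised to 1 FPKM, is called lower or higher here. The call is a size and not a test. At 2 h no member was lower in RNA, against 0.214% of all tested transcripts, and 1 was higher, the Argonaute gene EIF2C2, against 2.08%. At 4 h none was lower (background 3.58%) or higher (3.51%). At 6 h only EIF5A was lower (11.6%) and none was higher (5.74%). At 19 h 6 of 42 were lower (14.6%), namely EIF1AX, EIF2S1, EIF4A3, EIF5A, EIF5AL1 and EIF5B, and none was higher (7.13%). The median log2 RNA change of the 42 members was -0.056, -0.052, -0.00064 and -0.078 at 2, 4, 6 and 19 h, beside -0.045, -0.074, -0.0024 and -0.067 over all tested transcripts. The 14.3% of members lower at 19 h is thus close to the share among all tested transcripts. In bulk libraries a lower level in every cell and fewer cells with the transcript cannot be told apart.

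Ribosome density, the FPKM value of Ribo-Seq, fell in many members at 6 and 19 h. At 2 h EIF4E was lower, 1 of 42 against a background of 2.72%, and EIF3A, EIF4G1 and EIF4G3 were higher, 3 of 42 against 6.96%. At 4 h EIF4ENIF1 alone was lower (3.26%) and none was higher (10.4%). At 6 h 15 members were lower, 35.7% of the 42 against 19.0% of all tested transcripts, and 2 were higher, EIF4G1 and EIF4G3, against 15.0%. Against the 2 h library in place of the control, 7 members were lower at 6 h and none was higher. The share of all tested transcripts at that baseline was not computed, so these counts have no background. At 19 h 22 members were lower, 52.4% against 29.8%, and the same pair was higher, again against 15.0%. The median log2 density change of the members was -0.11, 0.14, -0.38 and -0.61, beside 0.016, 0.10, -0.020 and -0.19 over all tested transcripts.

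TE, the log2 ratio of ribosome density to RNA, shows density changes beyond those of RNA. At 2 h EIF2C2 and EIF4E were lower, 2 of 42 against a background of 1.78%, and EIF4G1 and EIF4G3 were higher, 2 of 42 against 5.39%. At 4 h none was lower (0.713%), and EIF5A alone was higher (9.24%). That count of 1 became 0 when centred on all tested transcripts and without members that share reads, and 3 against the 2 h library. At 6 h 10 members were lower, 23.8% against 12.3%, and EIF4G1 alone was higher (13.3%). At 19 h 15 members were lower, 35.7% against 15.6%, and EIF4G1 was again the only higher member (9.00%). The median log2 TE change of the members was -0.076, 0.14, -0.30 and -0.42, beside 0.045, 0.18, 0.0021 and -0.067 over all tested transcripts. The 0.14 at 4 h therefore lies slightly below the shift of all transcripts in that library. The 15 members lower at 19 h were EIF1, EIF1B, EIF2A, EIF2S1, EIF2S2, EIF2S3, EIF3E, EIF3F, EIF3H, EIF3K, EIF3L, EIF3M, EIF4A2, EIF4B and EIF4E. With a call at 2-fold their number was 7, for which no share of all tested transcripts was computed.

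**Figure D1:**
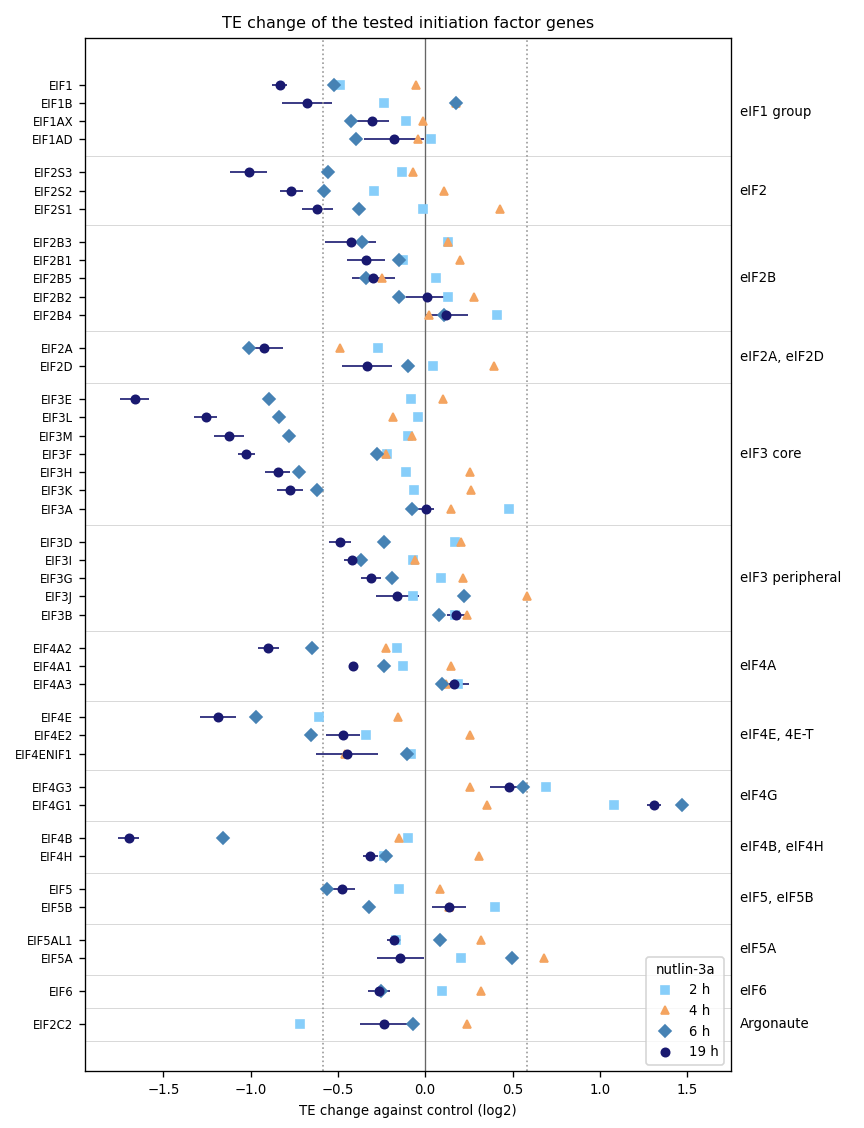
TE change against control (x axis, log2) of the 42 tested members, in rows by complex and within a complex by the 19 h value. Squares, triangles, diamonds and circles are 2, 4, 6 and 19 h of nutlin-3a, each 1 library per assay, bars are the counting SE at 19 h and dotted lines mark 1.5-fold. All 3 eIF2 subunits and 6 of 7 tested eIF3 core subunits lie left of the lower line at 19 h, against 15.6% of all tested transcripts. No eIF2B or peripheral eIF3 subunit does, 0 of 5 in each, which is too few genes for a result at that share. EIF4G1 lies at the far right at 2, 6 and 19 h.

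**Figure D2:**
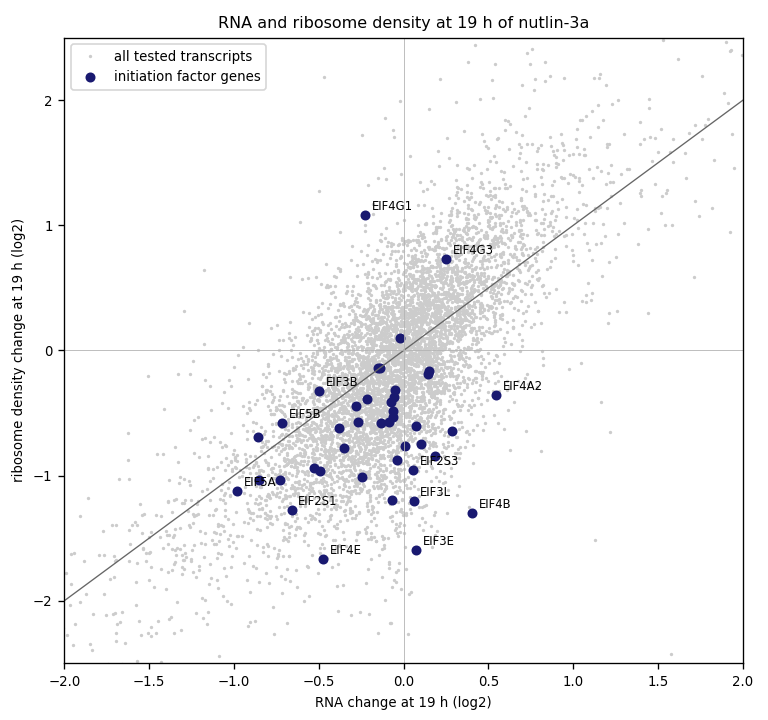
RNA change (x axis, log2) and ribosome density change (y axis, log2) at 19 h against control, for the 42 tested members (large points) and all other tested transcripts (small grey points, of which 285 beyond the axes are not drawn). The diagonal marks equal change in both assays. EIF4B and EIF3E lie far below it with RNA at or above control, EIF5A lies close to it, and EIF4G1 lies above it.

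The members lower in TE were set beside the sequence at their annotated transcript starts, because a TOP tract begins at the first base of an mRNA. Starts were taken from RefSeq (GRCh38.p14), matched by symbol, which is not the hg19 build of the files, and the windows run from 10 bases before the annotated start to 20 bases from it. Of the 42 tested members 35 had a window. EIF2C2, EIF2S2, EIF3A, EIF3E, EIF3G, EIF3H and EIF3L had none. A tract was a C at the annotated start followed by at least 4 bases that are C or T, read on the strand of the gene, with any of the annotated starts of a gene counted. This definition was chosen after the TE values had been seen. A tract was found in 9 of the 35 members, 25.7%, beside 4.07% of 35116 start windows in the table and 8.77% of 5314 tested transcripts with a matched symbol. The 9 windows are shown with the tract in capitals, so that the base after the first 10 is the annotated start.
EIF4B, chr12:53006446-53006475, plus strand: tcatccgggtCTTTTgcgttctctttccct
EIF3M, chr11:32583821-32583850, plus strand: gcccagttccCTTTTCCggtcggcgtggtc
EIF3F, chr11:7987327-7987356, plus strand: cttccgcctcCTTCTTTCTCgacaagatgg
EIF2S3, chrX:24054946-24054975, plus strand: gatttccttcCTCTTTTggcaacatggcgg
EIF2A, chr3:150546777-150546806, plus strand: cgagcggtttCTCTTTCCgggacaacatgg
EIF4A2, chr3:186783567-186783596, plus strand: gcgccgctgtCTTTTCagtcgggcgctgag
EIF3K, chr19:38619178-38619207, plus strand: tttccaccacCTCTTCCTgttcccgtcctt
EIF3D, chr22:36529147-36529176, minus strand: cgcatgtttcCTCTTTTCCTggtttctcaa
EIF2D, chr1:206612446-206612475, minus strand: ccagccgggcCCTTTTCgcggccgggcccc
For contrast, 4 members of the same complexes without a tract are shown in the same frame.
EIF2S1, chr14:67360318-67360347, plus strand: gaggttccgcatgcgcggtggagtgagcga
EIF3B, chr7:2354817-2354846, plus strand: tcgcacgcacatggctgggctgtagccgtc
EIF4A1, chr17:7572815-7572844, plus strand: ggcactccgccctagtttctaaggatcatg
EIF4E, chr4:98929114-98929143, minus strand: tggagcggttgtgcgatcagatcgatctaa
The first 9 lines follow the order of TE at 19 h, from -1.70 in EIF4B to -0.34 in EIF2D. The tract was shortest in EIF4B, with 5 bases, and longest in EIF3F and EIF3D, with 10.

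Of the 9 members with a tract, 7 were lower in TE at 19 h and 5 at 6 h, with median log2 TE changes of -0.93 and -0.62. Of the 26 without one, 4 were lower at 19 h and 2 at 6 h, with medians of -0.30 and -0.23. At 2 and 4 h no member with a tract was lower, and the medians were -0.099 and -0.078, beside -0.040 and 0.16 without a tract. The tract members that were not lower at 19 h were EIF3D (-0.49) and EIF2D (-0.34). The members that were lower without a tract were EIF1, EIF1B, EIF2S1 and EIF4E. EIF2S2, EIF3E, EIF3H and EIF3L were also lower in TE at 19 h, but had no window and are in neither group. Among all tested transcripts with a window, 125 of 466 with a tract (26.8%) and 686 of 4848 without (14.2%) were lower in TE at 19 h. Without ribosomal proteins and the initiation factors these shares were 18.0% of 412 and 13.9% of 4805. Annotated starts need not be those used in these cells, and a window without a tract says only that the letters are not at that position.

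**Figure D3:**
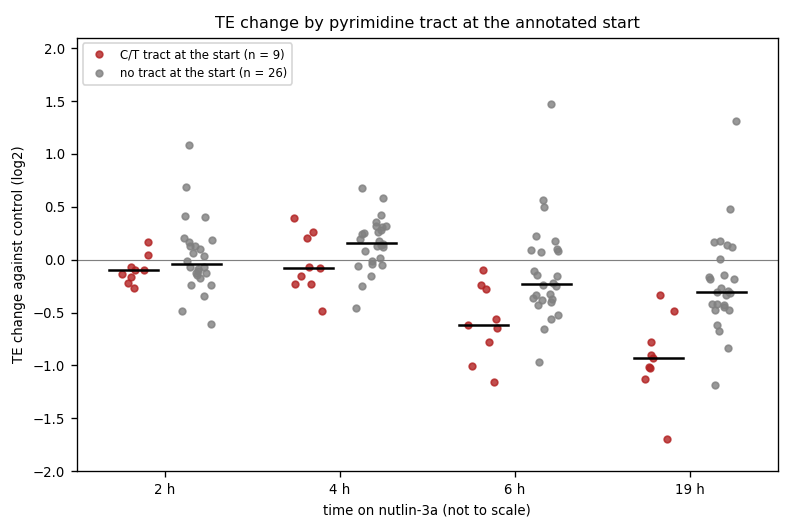
TE change against control (y axis, log2) of the 35 tested members with a start window, at 4 times on nutlin-3a (x axis), for 9 members with a pyrimidine tract at an annotated start (left, red) and 26 without (right, grey). Each point is a member, spread sideways for legibility, and bars are medians. The medians at 19 h are -0.93 and -0.30, and the groups overlap at every time.

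All 3 subunits of eIF2 had lower ribosome density at 6 and 19 h and lower TE at 19 h. Of all tested transcripts, 19.0% and 29.8% were lower in density at these times and 15.6% in TE at 19 h. The subunits are only 3 genes, and their counts were not tested against these shares. EIF2S1 (ENSG00000134001), the alpha subunit whose phosphorylation by stress kinases restrains initiation, was at 30.7, 29.4, 27.6, 24.5 and 19.4 FPKM in RNA-Seq at 0, 2, 4, 6 and 19 h. In Ribo-Seq it was at 29.3, 27.8, 35.5, 17.95 and 12.1 FPKM. The 4 h library was the highest in Ribo-Seq and the 19 h library the lowest in both assays. At 19 h the log2 changes were -0.66 (counting SE 0.039) in RNA, -1.28 (counting SE 0.079) in density and -0.62 (counting SE 0.089) in TE, so that about equal parts of the density change lay in RNA and in TE. EIF2S2 (ENSG00000125977), the beta subunit, was at 60.1, 61.8, 79.7, 57.6 and 50.8 FPKM in RNA-Seq and 77.9, 65.3, 112, 49.97 and 38.7 FPKM in Ribo-Seq. It was highest at 4 h in both assays, and its TE change was -0.58 at 6 h and -0.77 (counting SE 0.068) at 19 h. EIF2S3 (ENSG00000130741), the gamma subunit that binds GTP and the tRNA, was at 29.6, 30.8, 35.1, 28.98 and 30.7 FPKM in RNA-Seq and 27.04, 25.6, 30.6, 17.99 and 13.9 FPKM in Ribo-Seq. Its RNA at 19 h was 0.054 from control and its TE -1.01 (counting SE 0.10), the lowest of the eIF2 subunits. At 19 h the RNA changes of the 3 subunit genes thus ranged from -0.66 to 0.054, while density was lower in each, with changes of -0.96 to -1.28.

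The 5 eIF2B genes, which encode the exchange factor that returns eIF2 to its GTP-bound form, were within 1.5-fold of control in RNA and TE at every time. At 19 h 14.6% of all tested transcripts were lower in RNA and 15.6% in TE. At such shares a count of 0 in 5 genes is not a result about them. Their median log2 TE change was 0.13, 0.13, -0.15 and -0.30 at 2, 4, 6 and 19 h. The lowest at 19 h was EIF2B3 (ENSG00000070785), the gamma subunit, with 23.4, 20.8, 20.03, 26.9 and 18.4 FPKM in RNA-Seq and 23.5, 22.8, 21.97, 21.0 and 13.7 FPKM in Ribo-Seq. It was the only eIF2B gene with lower density at 19 h (-0.78), 1 of 5 against 29.8% of all tested transcripts. Its TE change was -0.43 (counting SE 0.15). The highest was EIF2B4 (ENSG00000115211), the delta subunit, with 17.5, 15.0, 14.9, 20.4 and 17.2 FPKM in RNA-Seq and 21.5, 24.5, 18.5, 27.1 and 23.1 FPKM in Ribo-Seq and a TE change of 0.12 (counting SE 0.12). RNA levels of the 5 genes, which are scaled to length, spanned between 1.19-fold (19 h) and 1.47-fold (2 h) in the 5 libraries. Those of the eIF2 subunits spanned between 2.03-fold (control) and 2.88-fold (4 h).

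EIF2A and EIF2D are not subunits of eIF2, and each can bring a tRNA to the ribosome by itself. EIF2A (ENSG00000144895) was at 37.9, 38.5, 36.9, 48.9 and 46.2 FPKM in RNA-Seq and 26.6, 22.3, 18.4, 17.1 and 17.04 FPKM in Ribo-Seq. Its RNA was highest at 6 and 19 h, where its density was lowest, and its TE change was -1.01 and -0.93. EIF2D (ENSG00000143486) was at 27.6, 25.0, 26.5, 32.3 and 30.5 FPKM in RNA-Seq and 12.95, 12.1, 16.3, 14.2 and 11.4 FPKM in Ribo-Seq, and its TE change of -0.34 (counting SE 0.14) at 19 h was within 1.5-fold.

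**Figure D4:**
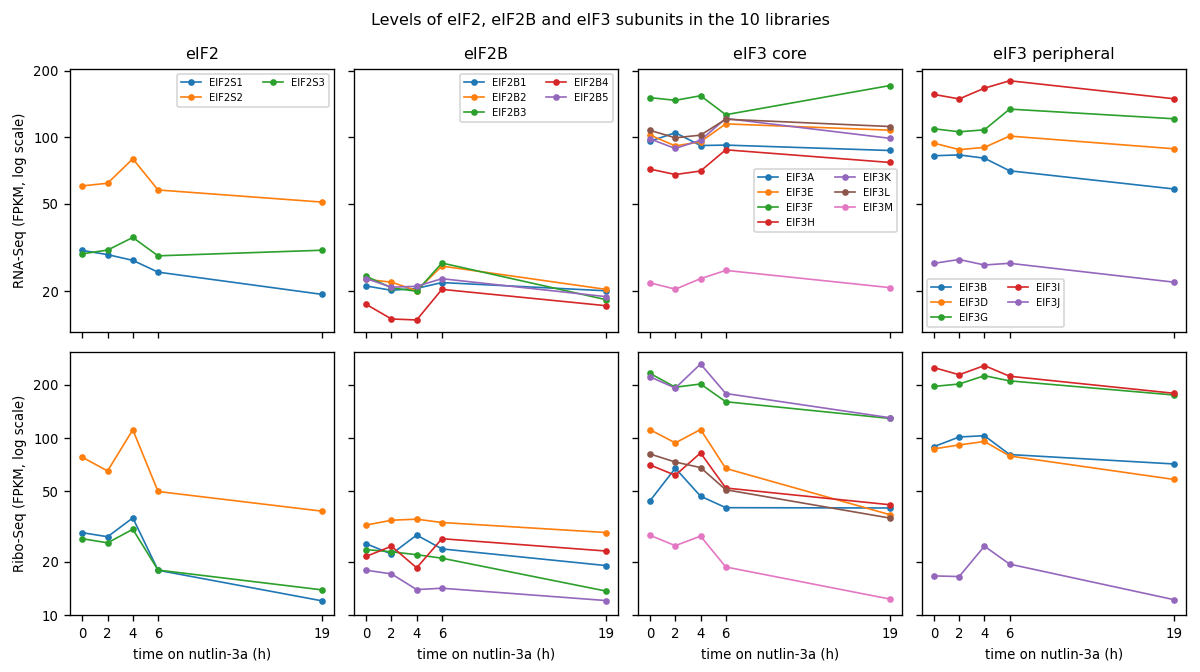
FPKM (y axes, log scale) in RNA-Seq (top) and Ribo-Seq (bottom) against time on nutlin-3a (x axis, h, with 0 for the control) for the tested subunits of eIF2, eIF2B, the eIF3 core and the eIF3 periphery, 1 library per point. In the eIF3 core the Ribo-Seq lines run down from 4 h to 19 h, that of EIF3A from 47.01 to 40.3 FPKM and that of EIF3E from 112 to 36.99 FPKM.

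The eIF3 subunits differed in their TE changes. Its core is built of PCI and MPN domain subunits, and 6 of the 7 tested core genes were lower in TE at 19 h, with a median over the 7 of -1.02, against 15.6% of all tested transcripts. None of the 7 was lower in RNA, where the share of all tested transcripts was 14.6%. A count of 0 in 7 genes is not a result at that RNA share. None of the 5 peripheral genes was lower in TE, with a median of -0.31, and at that background a count of 0 in so few genes is not a result about them. At 6 h the TE counts were 5 of 7 and 0 of 5 (background 12.3%), with medians of -0.72 and -0.19. At 4 h neither group held a lower gene (background 0.713%), and the medians were 0.10 and 0.22. The grouping follows the structure of the complex, and the lists were made with earlier results of these data known.

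The lowest core gene was EIF3E (ENSG00000104408), a PCI subunit whose mRNA has been described as a TOP mRNA. It was at 102, 91.2, 95.2, 115 and 107 FPKM in RNA-Seq and 112, 94.0, 112, 67.4 and 36.99 FPKM in Ribo-Seq. The control and 4 h Ribo-Seq libraries were nearly equal, and the 19 h library was 0.332 of control, a log2 TE change of -1.66 (counting SE 0.082). EIF3F (ENSG00000175390), an MPN subunit of the same description, was at 151, 147, 154, 126 and 171 FPKM in RNA-Seq and 232, 194, 202, 161 and 129 FPKM in Ribo-Seq. Its TE change was -0.27 at 6 h, within 1.5-fold, and -1.03 (counting SE 0.048) at 19 h, where its RNA was the highest of its 5 libraries. EIF3H (ENSG00000147677), the partner MPN subunit, was at 71.6, 67.7, 70.2, 87.5 and 76.7 FPKM in RNA-Seq and 70.5, 61.7, 82.5, 52.3 and 42.1 FPKM in Ribo-Seq. It was lower in TE at both 6 h (-0.72) and 19 h (-0.85 (counting SE 0.074)). EIF3K, EIF3L and EIF3M, the other lower core genes, had TE changes of -0.77, -1.26 and -1.12 at 19 h.

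The core gene that was not lower in TE was EIF3A (ENSG00000107581), the large scaffold subunit of the core. It was at 95.7, 105, 91.5, 91.9 and 86.9 FPKM in RNA-Seq and 44.4, 67.6, 47.01, 40.5 and 40.3 FPKM in Ribo-Seq. Its density stood out at 2 h, 1.53-fold above control, and was close to control in the other libraries, with a TE change of 0.0021 (counting SE 0.048) at 19 h. Against the 2 h library in place of the control that value was -0.48. In the periphery, EIF3D (ENSG00000100353) was the lowest, with 93.8, 87.7, 89.8, 101 and 88.5 FPKM in RNA-Seq, 86.9, 91.5, 95.8, 79.3 and 58.5 FPKM in Ribo-Seq and a TE change of -0.49 (counting SE 0.063) at 19 h. EIF3B (ENSG00000106263), a scaffold of the peripheral module, was the highest, with 82.3, 82.99, 80.2, 70.3 and 58.2 FPKM in RNA-Seq and 89.5, 102, 103, 80.8 and 71.5 FPKM in Ribo-Seq. Its RNA and density were both lowest at 19 h, and its TE change was 0.17 (counting SE 0.052).

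The subunits of eIF4F and its helpers differed most from each other. EIF4E (ENSG00000151247), the cap-binding protein, was at 63.1, 61.9, 66.0, 55.04 and 45.4 FPKM in RNA-Seq and 152, 97.5, 142, 67.7 and 47.9 FPKM in Ribo-Seq. Its density was below control at 2 h, near it at 4 h and 0.316 of it at 19 h, the lowest density change of the 42 members (-1.66 (counting SE 0.087)). Its TE changes were -0.61, -0.15, -0.97 and -1.19 at 2, 4, 6 and 19 h, and its counting SE at 19 h was 0.11. EIF4E2, a cap-binding relative linked to repression, was lower in TE at 6 h (-0.65) and not at 19 h (-0.47). EIF4ENIF1 (ENSG00000184708), which carries eIF4E into the nucleus, was low in all libraries, with 7.59, 6.70, 6.56, 5.86 and 6.92 FPKM in RNA-Seq and 6.17, 5.14, 3.87, 4.43 and 4.12 FPKM in Ribo-Seq. Its TE change at 19 h, -0.45 (counting SE 0.18), was within that error of the EIF4E2 value.

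The helicase genes had RNA changes of opposite sign at 19 h. EIF4A2 (ENSG00000156976) was at 104, 87.2, 90.2, 118 and 152 FPKM in RNA-Seq and 88.9, 66.7, 65.97, 64.6 and 69.7 FPKM in Ribo-Seq. It had the highest RNA change of the 42 members at 19 h (0.55 (counting SE 0.027)), just within 1.5-fold, while its density stayed below control in each treated library, and its TE change was -0.90 (counting SE 0.062). EIF4A1, the most abundant helicase gene of the family, was at 571 FPKM in the RNA-Seq control and 396 FPKM at 19 h, with a TE change of -0.42. EIF4A3 (ENSG00000141543), which is part of the exon junction complex and not of eIF4F, was at 57.7, 55.4, 48.8, 38.95 and 31.9 FPKM in RNA-Seq and 65.1, 71.2, 59.7, 46.9 and 40.3 FPKM in Ribo-Seq. Both assays fell together, by 0.86 and 0.69 on the log2 scale at 19 h, and its TE change was 0.16 (counting SE 0.088). EIF4A1 and EIF4A2 are close in sequence, and reads that they share were lost.

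EIF4B (ENSG00000063046), which stimulates the helicase and has been described as a TOP mRNA, had the lowest TE change of the 42 members at 6 and at 19 h. It was at 148, 149, 139, 188 and 195 FPKM in RNA-Seq and 136, 129, 116, 77.6 and 55.4 FPKM in Ribo-Seq. RNA was highest and density lowest in the 6 h and 19 h libraries, and the TE changes were -0.10, -0.15, -1.16 and -1.70 at the 4 times, with a counting SE of 0.061 at 19 h. EIF4H (ENSG00000106682), a related helper, was at 186, 192, 195, 213 and 179 FPKM in RNA-Seq and 141, 124, 183, 138 and 109 FPKM in Ribo-Seq, with a TE change of -0.31 (counting SE 0.042). The list of members described as TOP mRNAs was EIF3E, EIF3F, EIF3H and EIF4B, and it was made with earlier results of these data known. All 4 were lower in TE at 19 h and 3 of 4 at 6 h, with medians of -1.34 and -0.81, against 15.6% and 12.3% of all tested transcripts. None was lower in RNA at 19 h, against 14.6%, a share at which a count of 0 in 4 genes is not a result. Of these 4 members, EIF3F and EIF4B had a window and carried a tract.

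EIF4G1 (ENSG00000114867), the scaffold of eIF4F, went the other way. It was at 160.0, 165, 155, 121 and 137 FPKM in RNA-Seq and 39.4, 85.8, 48.6, 82.3 and 83.7 FPKM in Ribo-Seq. The Ribo-Seq values lay at a pair of levels, with the control and 4 h libraries at most at 48.6 FPKM and the 2, 6 and 19 h libraries at least at 82.3 FPKM. The TE changes were 1.08, 0.35, 1.47 and 1.31 at 2, 4, 6 and 19 h (counting SE 0.040 at 19 h). Set against the 2 h library, the density change at 19 h reversed to -0.036 and the TE change was 0.23. EIF4G3 (ENSG00000075151), its paralogue, was at 31.7, 32.02, 30.5, 33.6 and 37.6 FPKM in RNA-Seq and 5.88, 9.59, 6.77, 9.21 and 9.75 FPKM in Ribo-Seq. Its control and 4 h libraries were again the lowest in Ribo-Seq, and its TE changes were 0.69, 0.26, 0.56 and 0.48. Set against the 2 h library its TE change at 19 h was -0.21. The symbol EIF4G2 was not listed for either assay, so no value of it is given.

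The relation of changes from the control to transcript length differed between times and assays, and EIF4G1, EIF4G3 and EIF3A are long transcripts. Over 6991 tested transcripts with a recovered length, Spearman's rho of length with the log2 TE change was 0.24, -0.066, 0.22 and 0.19 at 2, 4, 6 and 19 h. In density alone it was 0.35, -0.0065, 0.13 and 0.15, and in RNA alone 0.30, 0.060, -0.11 and 0.024. For TE over the 42 members it was 0.095, -0.023, 0.15 and 0.28. These are descriptions over transcripts that share their libraries. The transcripts of EIF4G1, EIF3A and EIF4G3 were 5653.0, 5472.0 and 5046.0 nt long, and the median of the tested members was 2264 nt. With the linear trend over length removed, the TE change at 19 h was 1.14 in EIF4G1, 0.33 in EIF4G3 and -0.16 in EIF3A. The other tested members of at least 4485 nt were EIF5 (5945 nt), EIF3M (5051 nt), EIF5B (4716 nt) and EIF2S1 (4485 nt). Their TE changes at 19 h were -0.47, -1.12, 0.14 and -0.62. The number of members lower in TE at 19 h stayed within 1.5 times of 15 with the trend removed. What part length has in the eIF4G and EIF3A values was not tested.

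**Figure D5:**
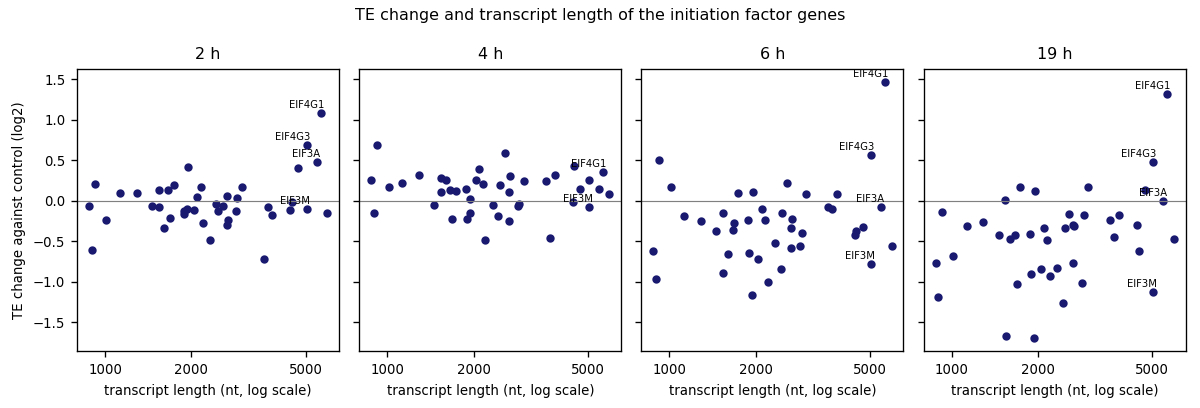
TE change against control (y axis, log2) and transcript length (x axis, nt, log scale) of the 42 tested members at 2, 4, 6 and 19 h of nutlin-3a, 1 library per assay and time. EIF4G1, at 5653 nt, is the highest point at 2, 6 and 19 h, and EIF3M, at 5051 nt, lies below 0 at all 4 times.

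Of the 4 tested eIF5, eIF5A and eIF5B genes 3 were lower in RNA at 19 h, against 14.6% of all tested transcripts. None was lower in TE, against 15.6%, and at that share a count of 0 in 4 genes is not a result about them. Of the 3 genes lower in RNA, EIF5A and EIF5AL1 share reads. Without members that share reads the number of initiation factors lower in RNA at 19 h went from 6 to 3. EIF5 (ENSG00000100664), which triggers GTP hydrolysis by eIF2, was at 60.1, 60.2, 57.7, 45.9 and 42.7 FPKM in RNA-Seq and 26.4, 23.8, 26.8, 13.6 and 13.5 FPKM in Ribo-Seq. Both assays were lowest at 19 h, and its TE change was -0.56 at 6 h and -0.47 (counting SE 0.071) at 19 h. EIF5B (ENSG00000158417), the GTPase of subunit joining, was at 41.7, 32.5, 34.2, 32.98 and 25.4 FPKM in RNA-Seq and 14.1, 14.5, 12.8, 8.93 and 9.45 FPKM in Ribo-Seq. Its RNA was below control in all 4 treated libraries, -0.72 at 19 h, and its TE change there was 0.14 (counting SE 0.10). EIF5A, a factor that helps ribosomes through difficult peptide bonds and carries the amino acid hypusine, had the lowest RNA change of the 42 members at 19 h. EIF5A (ENSG00000132507) was at 15.95, 14.5, 13.9, 9.71 and 8.07 FPKM in RNA-Seq and 528, 555, 739, 454 and 242 FPKM in Ribo-Seq. Its near-identical copy EIF5AL1 (ENSG00000253626) was at 124, 116, 117, 101 and 68.5 FPKM in RNA-Seq and 152, 127, 179, 132 and 74.4 FPKM in Ribo-Seq. The assays thus ordered the copies oppositely, and how reads were split between them was not tested. Both were lower in RNA (-0.98 and -0.85) and in density (-1.13 and -1.03) at 19 h, with TE changes of -0.14 and -0.18. EIF6 (ENSG00000242372), which keeps the large subunit from joining too early, was at 106, 99.4, 105, 129 and 103 FPKM in RNA-Seq and 161, 162, 199, 164 and 129.5 FPKM in Ribo-Seq, and was called in no comparison.

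Of the eIF1 group, which guards the choice of the start codon, EIF1 (ENSG00000173812) was the lowest in TE at 19 h. It was at 181, 219, 226, 168 and 176 FPKM in RNA-Seq and 229.8, 199, 278, 149 and 125 FPKM in Ribo-Seq. Its TE changes were -0.49, -0.051, -0.52 and -0.83 at the 4 times, with a counting SE of 0.041 at 19 h. Its close relative EIF1B was lower in TE at 19 h alone (-0.68), and EIF1AX, which helps scanning, was lower in RNA (-0.73) and not in TE (-0.31). EIF1AD (ENSG00000175376) was the highest of the group at 19 h, with 9.01, 10.01, 9.12, 6.66 and 7.77 FPKM in RNA-Seq, 8.33, 9.49, 8.19, 4.68 and 6.35 FPKM in Ribo-Seq and a TE change of -0.18 (counting SE 0.17). EIF2C2 (ENSG00000123908), the tested Argonaute, was at 14.01, 21.5, 16.9, 9.47 and 10.8 FPKM in RNA-Seq and 11.5, 10.8, 16.4, 7.42 and 7.52 FPKM in Ribo-Seq. Its RNA was highest at 2 h, where density was near control, which gave the lowest TE change of that time (-0.72 (counting SE 0.11)).

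Genes that act around the initiation factors were counted in the same way, beside the 15.6% of all tested transcripts that were lower in TE at 19 h and the 12.3% at 6 h. Of 75 tested ribosomal protein genes, whose mRNAs are the best known TOP mRNAs, 73 were lower in TE at 19 h, with a median of -1.32, and 69 at 6 h. Of 10 tested elongation and termination factors 5 were lower at 19 h, with a median of -0.61. The lowest was EEF1A1, which delivers tRNAs to the ribosome (-1.56), and EEF1E1, part of the tRNA synthetase complex, was past 2-fold in RNA (-1.10). Of 11 tested initiation and recycling partners 4 were lower, with a median of -0.37 and MCTS1, which works with DENR, lowest at -1.19. Of 14 tested regulators 2 were lower, a share near the background, with a median of 0.033. PAIP2, an inhibitor of poly(A)-binding protein, was the lowest (-1.27), and MKNK2, a kinase of eIF4E, was past 2-fold in RNA (1.16). The eIF3 core and eIF2 thus had TE medians (-1.02 and -0.77) between those of the ribosomal proteins and of all tested transcripts. This position was not particular to them. The other initiation factor groups, such as eIF2B (-0.30) and peripheral eIF3 (-0.31), also lay between, except eIF4G (0.90). These differences between groups of genes were not tested, since each time held 1 library per assay.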

How the data were processed

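RNA-Seq and Ribo-Seq were measured in 10 libraries of BJ fibroblasts, 1 per group, grouped by their labels. As the study describes, the authors used Bowtie to align reads to transcripts of Ensembl release 65 (hg19), with 1 isoform per gene, and kept unique hits. They deposited FPKM values in 2 tables of 5 columns. The table named for both assays was read as RNA-Seq. Ribo-Seq values may include reads outside the coding sequence. The study describes translation levels from coding-sequence reads alone, so density and TE here may differ from its measure. It lists a lower share of coding-sequence reads in the Ribo-Seq control run with nutlin-3a than in the nutlin-3a libraries it lists. What this difference adds to the changes from control was not tested. Where each table alone gave a transcript length (7666 transcripts), 89.3% had the same length in both. TE is compared over time and not between genes. Sequencing runs are not named in the labels.

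From these, values were floored at 1 FPKM, each library was compared with its assay's control on the log2 scale, and TE was the log2 ratio of both assays. Tested transcripts reached 5 FPKM or more in 1 or more libraries of both assays. Reads, totals and lengths were worked out from the steps between values for 99.7% of 11258 transcripts and gave counting errors. Recovery and calls were tried on simulated reads with counting noise and planted 2-fold changes. The RNA-Seq totals were given there, and deviation between libraries was not simulated. No p-value was computed. The members and lists were chosen with earlier results of these data known. Values in all libraries were given for the eIF2 subunits, the lowest and highest tested member of each other complex in TE at 19 h, the described TOP mRNAs and any member past 2-fold in RNA at 19 h. EIF4A1, EIF4E2, EIF1B and EIF1AX were named further after their values were seen. The alternatives were a pseudocount of 1 FPKM, a floor of 5 FPKM, no filter, a mean of at least 20 FPKM, the 2 h library as baseline, centring, removal of the length trend and a 2-fold call. Python 3.11.15 with numpy 2.4.6 and pandas 2.3.3 was used.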

Additional observations from a re-analysis of the deposited data

Results flagged for a closer look

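The median TE change of the 42 tested initiation factors lay on opposite sides of control at different times, which drew attention to it. It was 0.14 at 4 h, against -0.30 at 6 h and -0.42 at 19 h. The difference between these times was not tested, since each time held 1 library per assay. All tested transcripts were shifted by 0.18 in TE at 4 h, and relative to that shift the members' median at 4 h was -0.035.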

How the results depend on the processing

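The medians and counts were recomputed under the alternatives, of which the 4 h baseline, the set without Argonaute genes, EIF1AD and EIF4ENIF1, and the set without members that share reads with a copy were chosen after seeing the data. Medians reversed in RNA at 4 h, to 0.0072 with the 2 h baseline and 0.022 when centred on all tested transcripts, and in TE at 4 h, to -0.035 when centred. Centring moved the 19 h median to -0.011 in RNA and -0.42 in density, and the 4 h baseline moved the 6 h TE median to -0.43. The density change of EIF4G1 at 19 h reversed to -0.036 with the 2 h baseline. The causes were not tested. Shares of all tested transcripts were not computed under the alternatives, so the counts below have no background beside them. The number of members lower in TE moved at 2 h to 1 with a mean of at least 20 FPKM, with the length trend removed or without the Argonaute genes, EIF1AD and EIF4ENIF1, and to 0 with a 2-fold call. At 4 h it moved to 1 with the 2 h baseline and to 2 when centred. With a 2-fold call it was 2 at 6 h and 7 at 19 h. The 15 members lower in density at 6 h became 7 with the 2 h baseline and 1 with a 2-fold call, and the 22 at 19 h became 10 with a 2-fold call. The 6 members lower in RNA at 19 h became 3 with a mean of at least 20 FPKM, 3 without members that share reads and 0 with a 2-fold call. The 1 member higher in TE at 4 h became 3 with the 2 h baseline and 0 when centred, with a mean of at least 20 FPKM, without members that share reads or with a 2-fold call. With the 2 h baseline no member was higher in density or TE at 19 h. The other alternatives left the medians of RNA, density and TE at 19 h and the number lower in TE at 19 h within the limits for an unchanged value. For a median the limits were a 95% interval over the 42 members. These members share their libraries, so the interval says nothing of the spread between cultures. A change of sign inside the interval was not counted as reversed. For a count the limit was a 1.5-fold ratio to its main value. No paired analysis was possible because each group held 1 library. A change in a single library cannot be told apart from that library's own deviation, and Ribo-Seq depth was lowest at 19 h.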
